A study of Mus musculus with 586 samples.

Results

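Endoderm was compared with ectoderm in mouse embryos at embryonic day 7.5 (E7.5), late in gastrulation, within the same sections of the same 2 embryos. The region codes compared are EA and EP, read as anterior and posterior endoderm, and A and P, read as anterior and posterior ectoderm. The mesoderm codes MA and MP are used for comparison only. The labels do not spell these codes out, and their meaning here follows the published atlas, in which section 1 is the most distal. Each of embryos 5 and 6 has 1 library per region in sections 3, 6 and 9, which gives 12 endoderm and 12 ectoderm libraries, 24 of the 586 samples of the series, and 12 mesoderm libraries. The study mapped gene expression over the gastrulating embryo by Geo-seq, in which patches of about 20 cells are cut from a cryosection with a laser and sequenced. All embryos are C57BL/6 and the labels name no treatment or mutation. A library is therefore a patch of tissue and not a purified cell type, and its layer is given by its place in the section alone.

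At gastrulation, cells leave the epiblast through the primitive streak and form mesoderm and definitive endoderm. The definitive endoderm, the source of the gut tube and its glands, moves into the outer layer of the embryo, where it meets the visceral endoderm, an older layer that takes up nutrients and secretes plasma proteins for the embryo. The transcription factors Sox17, Foxa2, Gata4 and Gata6 mark endoderm, while Sox2 and Pou3f1 mark the anterior ectoderm that becomes brain, and the T-box factor T marks the streak.

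Promoters of genes at both ends of the comparison are shown first, because their protein products run from a lipid carrier and a keratin to a kinase, and the motif letters in them can be read beside the values. They were chosen after the values were seen, among genes with a difference past 3 on the log2 scale in either direction and a GATA, FOXA or octamer match. The windows are RefSeq promoters of build GRCm38.p6, from 250 bases before to 50 after the start of transcription, printed 5′ to 3′ on the gene's strand. Capitals mark matches on either strand. The letters searched were AGATAA for factors of the GATA family, then TGTTTAC for forkhead factors of the FOXA group, ATGCAAAT for the octamer of POU factors, and TATAAA for the TATA box. Each was searched separately, so that matches can overlap.
Rbp4 (retinol carrier, higher in endoderm, chr19:38125272-38125571, minus strand, 1 of its windows, a FOXA match): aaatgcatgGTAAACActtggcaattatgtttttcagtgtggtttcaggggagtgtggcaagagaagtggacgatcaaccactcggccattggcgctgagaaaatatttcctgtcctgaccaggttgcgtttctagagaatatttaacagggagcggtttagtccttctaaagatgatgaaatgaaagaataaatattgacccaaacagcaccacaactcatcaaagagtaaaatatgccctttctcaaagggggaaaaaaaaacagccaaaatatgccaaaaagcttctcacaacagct
Krt8 (keratin, higher in endoderm, chr15:102004293-102004592, minus strand, a GATA match and TATA matches): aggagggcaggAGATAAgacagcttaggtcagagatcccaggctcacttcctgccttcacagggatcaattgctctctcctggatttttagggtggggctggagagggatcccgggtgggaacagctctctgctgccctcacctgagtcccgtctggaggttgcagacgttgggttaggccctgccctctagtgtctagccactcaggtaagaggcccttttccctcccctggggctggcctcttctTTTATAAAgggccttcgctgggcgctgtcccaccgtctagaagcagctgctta
Dab2 (endocytic adaptor, higher in endoderm, chr15:6299539-6299838, plus strand, a GATA match): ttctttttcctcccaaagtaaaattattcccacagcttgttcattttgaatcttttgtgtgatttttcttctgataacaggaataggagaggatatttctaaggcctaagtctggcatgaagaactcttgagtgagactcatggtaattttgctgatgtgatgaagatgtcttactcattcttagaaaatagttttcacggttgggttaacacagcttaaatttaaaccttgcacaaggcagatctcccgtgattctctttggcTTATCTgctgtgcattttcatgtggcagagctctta
Foxa2 (transcription factor, higher in endoderm, chr2:148045415-148045714, minus strand, a GATA match and a TATA match): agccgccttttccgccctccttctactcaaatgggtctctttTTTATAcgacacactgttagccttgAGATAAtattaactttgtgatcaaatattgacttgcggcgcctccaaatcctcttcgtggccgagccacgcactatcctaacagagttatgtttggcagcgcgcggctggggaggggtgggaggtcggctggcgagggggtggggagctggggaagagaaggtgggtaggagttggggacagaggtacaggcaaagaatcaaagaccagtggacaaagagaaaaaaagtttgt
Pim2 (kinase, lower in endoderm, chrX:7878056-7878355, plus strand, 2 octamer matches): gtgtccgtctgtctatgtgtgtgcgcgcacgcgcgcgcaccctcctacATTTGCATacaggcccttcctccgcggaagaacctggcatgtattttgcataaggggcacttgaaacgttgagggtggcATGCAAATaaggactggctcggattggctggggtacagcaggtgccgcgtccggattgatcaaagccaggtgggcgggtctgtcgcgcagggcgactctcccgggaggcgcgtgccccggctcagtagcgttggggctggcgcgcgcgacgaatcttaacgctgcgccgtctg
The GATA letters were in 11.2% of all 32851 RefSeq promoters, in 7.48% of those of the 7741 genes tested that have one, in 9.91% of the 666 promoters of genes higher in endoderm and in 7.48% of the 789 of genes lower in endoderm. The FOXA letters were in 3.65%, 2.96%, 3.75% and 3.42% of the same groups. The octamer was in 1.74%, 1.58%, 2.1% and 2.92%, and the TATA letters in 13.6%, 8.35%, 12.6% and 8.62%. The letters CAAAGTCCA (HNF4) were in 0.475%, 0.452%, 1.05% and 0.507%. A match is a description of the letters in the window and no evidence of binding. Of the 116 genes chosen for description, 74 have an entry. Sox17, Spink3, Ttr and Slc7a3 have none.

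The deposited values are FPKM, fragments per kilobase of transcript and M mapped fragments, so levels can be compared between genes. Sequencing depth was estimated from the smallest steps between FPKM values in 2761 genes that have a single transcript. It was 1.62 to 4.27 M reads in the endoderm libraries, with a median of 2.51, and 2.34 to 6.46 M in the ectoderm libraries, with a median of 2.82. At the shallowest endoderm depth, 1 read in a transcript of 2 kb was worth 0.308 FPKM. Between 8681 and 9539 genes reached 1 FPKM in the endoderm libraries and between 8132 and 9529 in the ectoderm libraries, and no pair of libraries was identical. FPKM sums ran from 280989 to 628979 in endoderm and from 200566 to 645981 in ectoderm. A level below is the mean of the 2 embryos ± their SD (n = 2), each embryo's value being the mean of its 6 libraries of that layer. A difference is the mean of EA and EP minus the mean of A and P on the log2(FPKM + 1) scale, averaged over sections and given with its standard error. It understates the change of low genes. In patches of tissue, fewer cells of a type and less RNA per cell cannot be told apart.

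Transcripts of blood and of trophoblast giant cells were higher in endoderm than in ectoderm, and the mesoderm libraries held some of them as well. Hba-a1, an adult-type alpha globin, had a lowest of 171, a median of 2392 and a highest of 14232 FPKM in the 12 endoderm libraries and a lowest of 8.56, a median of 52.1 and a highest of 478 in the 12 ectoderm libraries, a difference of 4.90 ± 0.38 (limma adjusted p 2.15e-06). In the 12 mesoderm libraries it had 11.9 to 1935 FPKM, which overlaps with the endoderm. Hba-a1 and Hba-a2 are near-identical copies, as are the beta globins Hbb-b1 and Hbb-b2, so the split between copies is uncertain. Prl3d1, a prolactin of trophoblast giant cells, had a lowest of 1.22, a median of 59.7 and a highest of 4209.7 FPKM in endoderm and at most 8.00 in ectoderm, with the highest value in EA section 6 of embryo 6. Of all genes tested, 8.8% were higher in endoderm by the test described below. The trophoblast list (14 genes in the tables) had 6 of 7 tested members higher in endoderm, and its summed level was 18.0 to 5404 FPKM (median 155) against 0 to 16.4 (median 2.18). Of its 14 genes, 3 (Tpbpa, Esrrb and Wnt7b) stayed below 1 FPKM in every endoderm library. The list of decidua and maternal blood (13 genes) had all 6 tested members higher, with summed levels of 234 to 20206 FPKM (median 3974) against 11.2 to 820 (median 87.7) in ectoderm and 15.1 to 3076 (median 657) in mesoderm. The list of blood and endothelium, which holds the embryonic globins, had 1 of 7 tested members higher, the endothelial cadherin Cdh5 at 0.88, which did not pass with equal medians (limma adjusted p 0.0943). Cdh5 peaked at 54.9 FPKM in EA section 6 of embryo 6, the library highest in Prl3d1. Its next highest endoderm library held 3.17 FPKM, and it did not pass without section 6. Within the decidua list, the stromal collagen Col1a1 was listed at 0 in every endoderm library, and Col3a1 and Lum stayed below 1 FPKM. These transcripts move with the comparison, and their part in the results below was not tested.

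Across all genes, 1974 of the 10332 tested (19.1%) passed the threshold described next, with 909 (8.8%) higher and 1065 (10.3%) lower in endoderm. A moderated test (limma) on 1 difference per embryo, with the spread shared over 6 embryos of E6.5, E7.0 and E7.5 and Benjamini-Hochberg adjustment over all genes, gave these calls at an adjusted p under 0.05. The median difference of all genes was -0.16, being -0.01 in embryo 5 and -0.30 in embryo 6. With all libraries scaled to an equal median, 885 genes (8.57%) were higher and 427 (4.13%) lower, and 851 of the 909 and 423 of the 1065 were called under both scalings. Without embryo 6 the calls numbered 461 higher and 149 lower, and the count of lower genes thus moved the most. A gene was tested where its mean reached 1 FPKM in the libraries of the comparison at 1 stage or more. A gene that is high in a single layer passes through that layer, so the counts over tested members of a list describe the list and support nothing more. In the 12 endoderm and 12 ectoderm libraries the values of 69 genes (0.668% of those tested) did not overlap and were higher in endoderm, and those of 20 genes (0.194%) did not overlap and were lower.

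**Figure D1:**
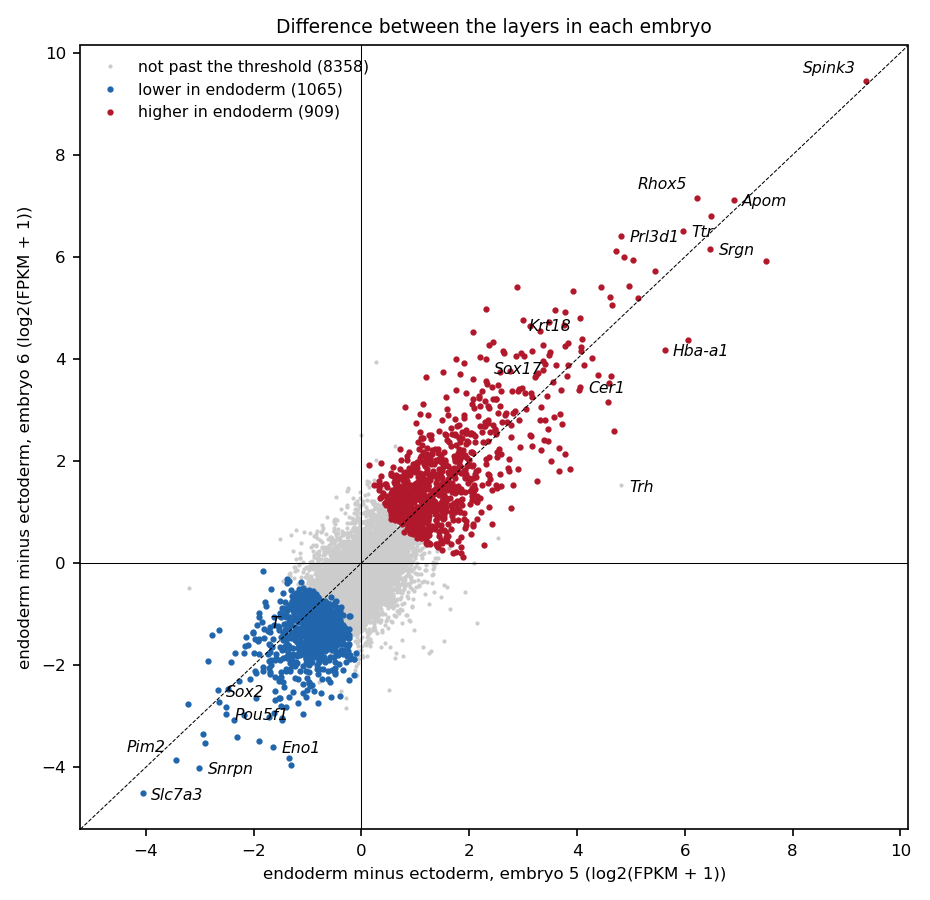
Difference between endoderm and ectoderm (log2(FPKM + 1)) in embryo 5 (x axis) and embryo 6 (y axis) for the 10332 genes tested, with the 909 higher and 1065 lower genes coloured, the rest grey and a dashed line of equality. The called genes lie at both ends of the diagonal, and the grey cloud sits below the line, as the medians of -0.01 and -0.30 give.

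Of the 3 marker genes, Sox17 and Krt18 separated the endoderm libraries from the ectoderm libraries and Trh did not. Sox17, a transcription factor needed for endoderm (chr1:4490931-4497354, minus strand, GRCm38), had a lowest of 4.63, a median of 12.7 and a highest of 23.4 FPKM in endoderm and a lowest of 0, a median of 0 and a highest of 0.780 in ectoderm. No ectoderm library reached the lowest endoderm library, and the difference was 3.55 ± 0.28 (limma adjusted p 1.55e-09), 3.56 in embryo 5 and 3.55 in embryo 6. Krt18, a keratin of simple epithelia (chr15:102028180-102032027, plus strand), had a lowest of 101, a median of 266 and a highest of 359 FPKM in endoderm and a lowest of 0, a median of 18.2 and a highest of 41.2 in ectoderm, again without overlap. Its difference was 4.24 ± 0.27 (limma adjusted p 6.36e-11). Trh, the precursor of thyrotropin-releasing hormone (chr6:92242061-92244650, minus strand), behaved otherwise. It had a lowest of 0, a median of 267 and a highest of 829.5 FPKM in endoderm and a lowest of 1.94, a median of 16.6 and a highest of 211 in ectoderm, and the layers overlapped. Its difference of 3.17 ± 1.02 did not pass (limma adjusted p 0.126), being 4.83 in embryo 5 and 1.52 in embryo 6, whereas with equal medians it was 3.40 and passed (limma adjusted p 0.00543).

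Trh was uneven within the layer. In EA of sections 3, 6 and 9 it stood at 545, 695 and 829.5 FPKM in embryo 5 and at 374, 197 and 348 in embryo 6. In EP it stood at 214, 242 and 40.4 and at 293, 73.7 and 0. EA was thus above EP in each section of both embryos, and EP of section 9 was the lowest of each embryo. The A library of embryo 6 in section 3 was the highest ectoderm library with 211 FPKM, against 29.1 in the same place of embryo 5.

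**Figure D2:**
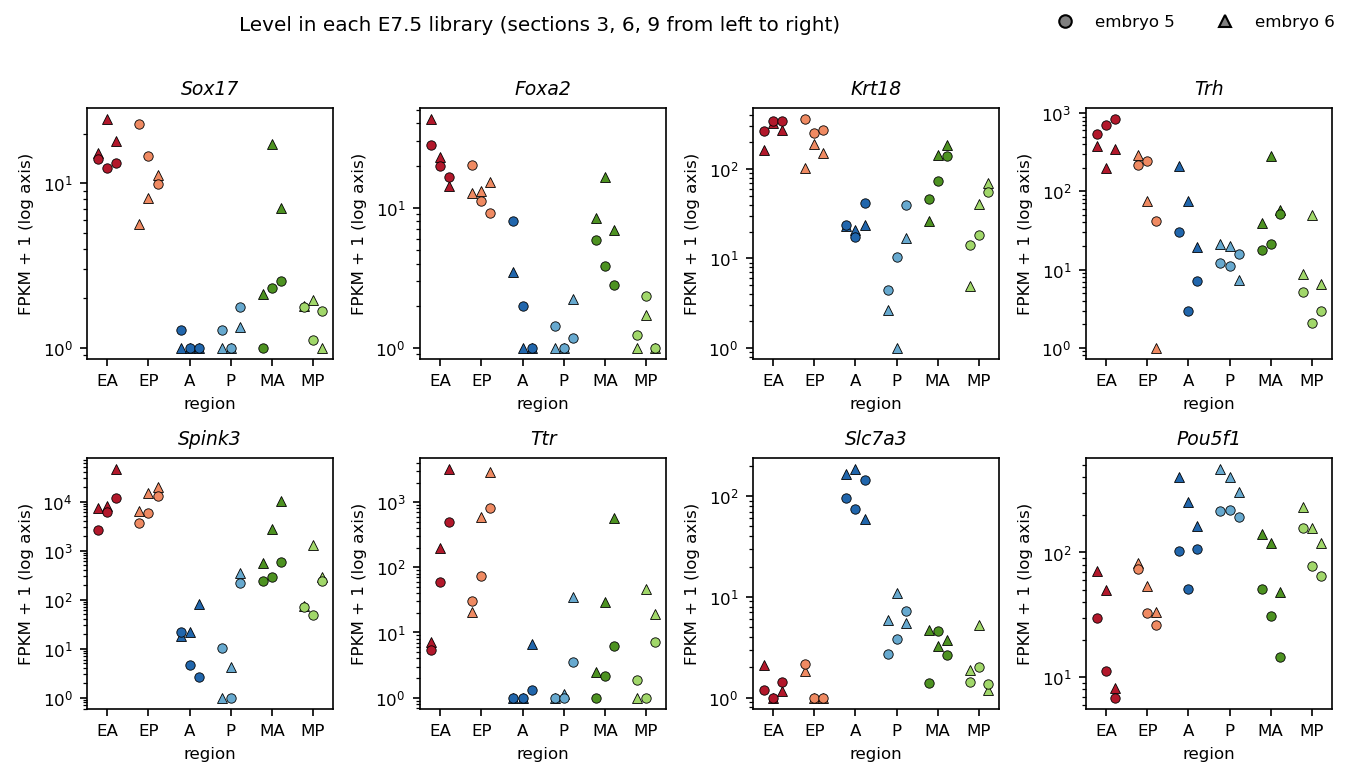
Level (FPKM + 1, log axis) of 8 genes in each library of EA, EP, A, P, MA and MP, with sections 3, 6 and 9 from left to right, circles for embryo 5 and triangles for embryo 6. Sox17, Foxa2, Krt18 and Spink3 lie above the ectoderm libraries in every endoderm library, Trh overlaps, and Slc7a3 lies below every ectoderm library with A far above P.

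Of the 23 genes of the definitive endoderm list 21 were tested, of which 15 were higher and 1 was lower, and the median difference was 2.48, against -0.16 for all genes. Equal medians gave the same counts. Foxa2, a pioneer factor that opens chromatin at endoderm genes (chr2:148042877-148046969, minus strand), had a lowest of 8.22, a median of 14.9 and a highest of 41.8 FPKM in endoderm and a lowest of 0, a median of 0.0847 and a highest of 7.02 in ectoderm, without overlap. Its difference was 3.47 ± 0.33 (limma adjusted p 1.35e-07). Its relatives Foxa1 and Foxa3 differed by 2.73 and 1.78, and the zinc finger factors Gata6 and Gata4 by 2.81 and 2.48. All 4 were higher. The chemokine receptor Cxcr4, often used to sort definitive endoderm, was higher by only 0.95.

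The highest level in the group was that of Spink3, a secreted inhibitor of trypsin-like proteases. It had a lowest of 2659, a median of 7833 and a highest of 45834 FPKM in endoderm and a lowest of 0, a median of 13.1 and a highest of 349 in ectoderm, without overlap, and its difference of 9.41 ± 0.26 was the largest of the genes described (limma adjusted p 2.42e-15). Members that did not pass were Epcam at -0.48, an adhesion molecule of both epithelia, Hhex at 0.50, a factor of liver and thyroid primordia, and Eomes at 0.37, a T-box factor of the streak. Gsc, a homeobox factor of the anterior streak, did not pass either. The lower member was Mixl1, a homeobox factor of the streak, at -2.05.

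The anterior endoderm list gave a mixed answer. Of 14 tested members, 4 were higher and 1 lower, and the median difference was 0.45. Cer1, a secreted antagonist of NODAL, BMP and WNT, stood at 88.3 ± 31.2 FPKM in EA (range 41.8 to 123), 6.95 ± 1.92 in EP, 1.52 ± 0.565 in A and 0.0416 ± 0.0588 in P. Every EA library was above every library of EP, A and P. Its difference was 3.76 ± 0.27 (limma adjusted p 4.12e-10). Dkk1, a secreted WNT antagonist, stood at 29.9 ± 6.17 FPKM in EA, 6.31 ± 2.47 in EP, 0.572 ± 0.496 in A and 10.4 ± 7.36 in P. In MA it stood at 19.1 ± 14.7 FPKM. Lefty1, a NODAL antagonist of the anterior visceral endoderm at earlier stages, was listed at 0 in all 12 endoderm libraries. The lower member was Otx2, a head homeobox factor, at -1.20. Without embryo 6 its difference was -0.57 (limma adjusted p 0.542).

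Nearly the whole visceral endoderm list was higher in the outer layer. Of its 30 genes 28 were tested, of which 26 were higher and none was lower, and the median difference was 3.95, the same counts as with equal medians. Only the apolipoprotein Apoa2 and the endocytic receptor Lrp2 did not pass, at 0.84 and -0.08. Ttr, a carrier of thyroid hormone and retinol, had a lowest of 4.47, a median of 133 and a highest of 3213 FPKM in endoderm and a lowest of 0, a median of 0 and a highest of 34.5 in ectoderm. The layers overlapped at their edges, and the difference was 6.24 ± 0.27 (limma adjusted p 3.91e-14). Afp, the fetal albumin-like protein, stood at 78.8 ± 51.8 FPKM in endoderm and differed by 4.63 ± 0.38. Rhox5, a homeobox gene of the X-linked Rhox cluster, had a lowest of 113, a median of 221 and a highest of 603 FPKM in endoderm and a lowest of 0, a median of 0 and a highest of 41.4 in ectoderm, without overlap, and differed by 6.70 ± 0.31 (limma adjusted p 7.01e-13).

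Genes of lipid transport and of uptake from outside overlap with that list. Of the 14 tested genes (17 listed) of apolipoproteins and lipid transport 12 were higher and 1 lower. The visceral endoderm list holds 8 of the 14. Apom, a carrier of sphingolipids, had a lowest of 24.7, a median of 207 and a highest of 1812 FPKM in endoderm and a lowest of 0, a median of 0 and a highest of 25.3 in ectoderm and differed by 7.01 ± 0.29 (limma adjusted p 3.91e-14). Apoa1, the main protein of high-density lipoprotein, had a lowest of 2.64, a median of 234 and a highest of 5242 FPKM against a lowest of 0, a median of 0.513 and a highest of 45.7 and differed by 6.64 ± 0.28. Apoe, which ligates lipoprotein receptors, was already present in ectoderm, with 84.6 ± 1.52 FPKM against 1442 ± 615 in endoderm. Its libraries did not overlap. The lower member was the fatty acid carrier Fabp5 at -1.74.

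In the list of endocytic receptors and lysosome, 11 of 20 tested members were higher, none was lower and the median difference was 0.91. Those higher included the receptor complex of cubilin and amnionless, Cubn at 3.39 and Amn at 4.28, with its adaptor Dab2 at 4.08, and the lysosomal proteases Ctsh at 5.43 and Lgmn at 2.70. Lamp2 was higher by 0.85, while Ctsd at 0.27, Psap at -0.64 and Grn at -0.30 did not pass. The size of the difference thus varied widely within the list, and Lrp2, a partner of the cubilin complex, was not among the higher genes.

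All 4 tested keratins were higher, Krt8 by 4.35 ± 0.29, Krt18, Krt19 by 3.82 and Krt7 by 2.35. Krt8, the partner of Krt18 in the filaments of simple epithelia, had a lowest of 78.7, a median of 208 and a highest of 572 FPKM in endoderm and a lowest of 0, a median of 8.69 and a highest of 34.0 in ectoderm, without overlap. Among 22 tested genes of tight junction and polarity 10 were higher and 1 lower, and the median was 0.57. The claudin Cldn6 at 2.37 and the microvillus protein Vil1 at 2.64 were higher, as were Podxl, an apical sialomucin, at 2.05 and Crb3, an apical polarity protein, at 1.81. Podxl and Crb3 did not pass with A alone as ectoderm (limma adjusted p 0.0731 and 0.725). Crb3 stood at 9.39 to 32.7 FPKM in A and 0 to 3.09 in P, against 12.7 to 43.1 in EA and 15.5 to 26.4 in EP. The junction genes that did not pass included Cdh1 at -0.40, Tjp1 at -0.07 and Ocln at 0.13. The stem cell surface protein Prom1 was the lower member at -1.81.

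Basement membrane genes were higher almost as a set, with 11 of 13 tested members (15 listed) higher, none lower and a median of 2.05. Col4a1, a chain of collagen IV, had a lowest of 23.6, a median of 66.0 and a highest of 193 FPKM in endoderm and a lowest of 1.28, a median of 3.25 and a highest of 5.34 in ectoderm, without overlap, and differed by 4.01 ± 0.29 (limma adjusted p 3.59e-10). Its partner chain Col4a2 differed by 3.74, the laminin chain Lama1 by 3.36, the linker nidogen Nid1 by 3.65 and the matrix protein Sparc by 3.23. These genes are also known from parietal endoderm, the layer under the trophoblast, whose list had 11 of 13 tested members higher with a median of 3.23. The lists share 6 members. Of the others, Srgn, a proteoglycan core protein, had a lowest of 22.8, a median of 75.6 and a highest of 259 FPKM in endoderm and 0 to 0.447 in ectoderm, and the receptor Pth1r and the surface protein Thbd differed by 3.85 and 2.38. The summed level of the parietal list was 222 to 1352 FPKM in endoderm and 20.0 to 407 in ectoderm, and its part in the basement membrane result was not tested.

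**Figure D3:**
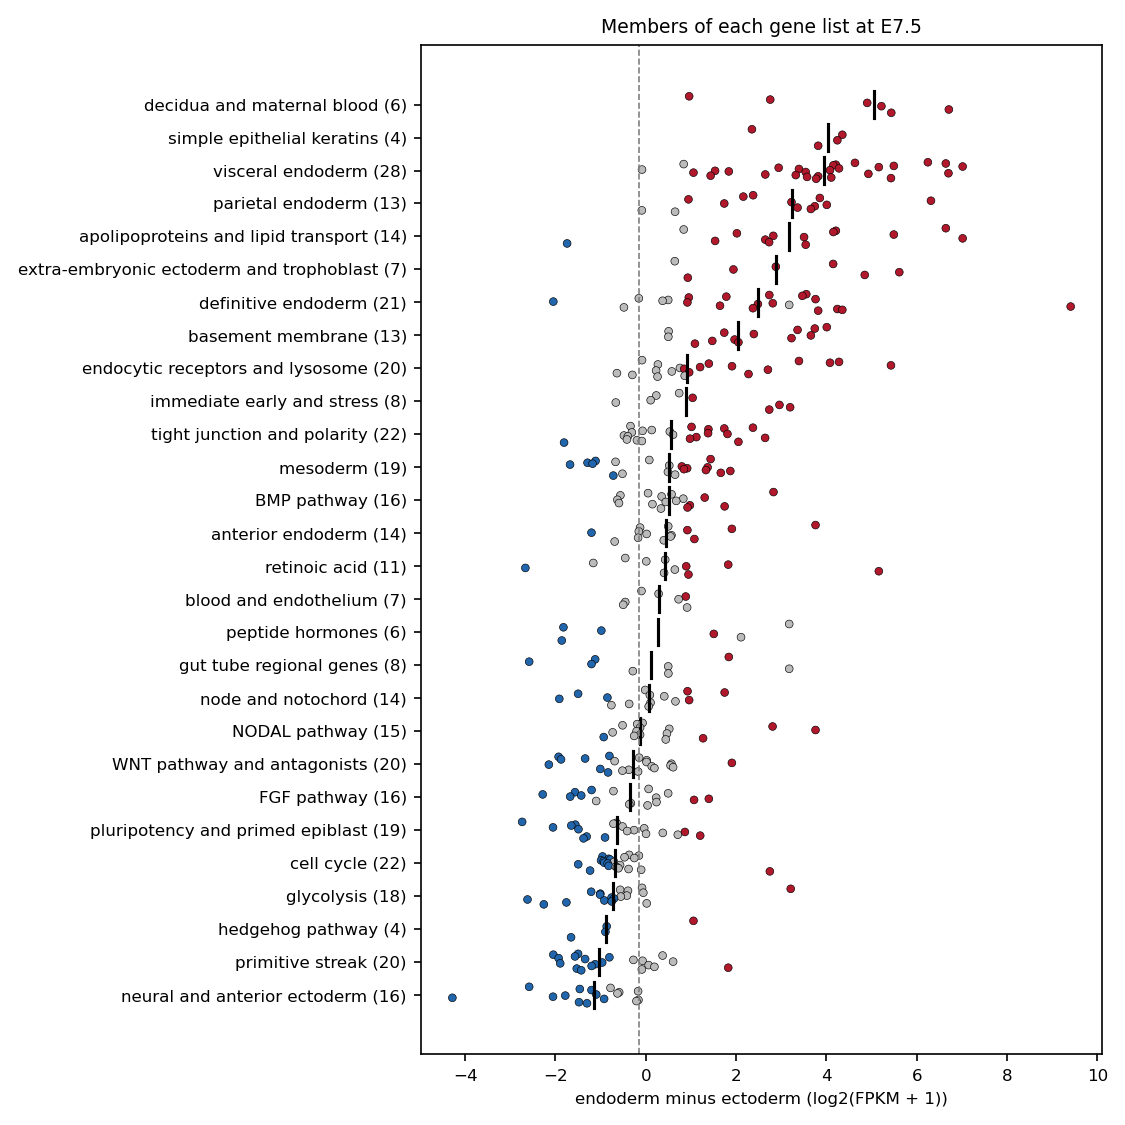
Differences (log2(FPKM + 1), endoderm minus ectoderm) of the tested members of each gene list, red where higher, blue where lower and grey where not called, with a black bar at the list's median and a dashed line at the median of all genes, -0.16. The list of decidua and maternal blood has the largest median, 5.06. The visceral endoderm, keratin, apolipoprotein, parietal endoderm, trophoblast and basement membrane lists also lie to the right, and the ectoderm and streak lists to the left.

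On the ectoderm side, none of 16 tested genes (25 listed) of neural and anterior ectoderm was higher and 10 were lower (9 with equal medians), with a median of -1.15. Slc7a3, a cationic amino acid transporter (chrX:101079210-101086020, minus strand), was the most unequal. It had a lowest of 0, a median of 0.0885 and a highest of 1.18 FPKM in endoderm and a lowest of 1.73, a median of 34.2 and a highest of 184 in ectoderm, without overlap, and differed by -4.28 ± 0.27 (limma adjusted p 6.36e-11). Within the ectoderm it split by side, with 119.8 ± 22.7 FPKM in A (range 58.6 to 184) and 5.00 ± 2.01 in P (range 1.73 to 9.86). Sox2, a neural and pluripotency factor, stood at 21.5 ± 9.12 FPKM in A, 2.54 ± 0.995 in P, 1.02 ± 0.840 in EA and 0.0936 ± 0.0586 in EP, and differed by -2.58 ± 0.27 (limma adjusted p 2.27e-07). The POU factor Pou3f1 differed by -1.46 ± 0.29 and the HMG-box factor Sox11 by -1.78. Without embryo 6, Pou3f1 differed by -1.40 and no longer passed (limma adjusted p 0.0566). Members that did not pass were Sox3 at -0.78, Zic2 at -0.59 and Hesx1 at -0.17.

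Other genes among the largest deficits of endoderm have no common role in the lists. Pim2, a serine kinase that favours survival, differed by -3.65 ± 0.27. Snrpn, an imprinted splicing gene, stood at 13.7 ± 5.74 FPKM in endoderm and 147 ± 14.4 in ectoderm without overlap, and differed by -3.51 ± 0.28. The carboxypeptidase Cpe, which trims prohormones, differed by -3.22, the G-protein subunit Gng3 by -3.15, the carbonic anhydrase Car14 by -2.86 and the retinoic acid carrier Crabp2 by -2.67. The chemokine Cxcl12, the ligand of Cxcr4, differed by -2.58. The microfibril protein Mfap2 differed by -2.62 ± 0.60 (limma adjusted p 0.0199), and by -1.30 without embryo 6, where it did not pass (limma adjusted p 0.127).

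The pluripotency list split by gene. Of 19 tested members 8 were lower (7 with equal medians), 2 were higher and the median was -0.65. Pou5f1, the POU factor that maintains the epiblast, had a lowest of 5.85, a median of 32.1 and a highest of 80.9 FPKM in endoderm and a lowest of 49.6, a median of 216 and a highest of 465 in ectoderm. The layers overlapped, and the difference was -2.74 ± 0.27 (limma adjusted p 8.39e-08). The epiblast factor Utf1 differed by -2.05 and the DNA methyltransferases Dnmt3b and Dnmt3a by -1.65 and -1.56. Without embryo 6, Dnmt3a had an adjusted p of 0.0514 (limma). Nanog at -0.65 did not pass (limma adjusted p 0.0889), nor did Sall4 at -0.26 or Lin28a at -0.04. The 2 higher members were Klf4 at 1.20, which epithelia also use, and the zinc finger gene Zfp42 at 0.87.

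Genes of the primitive streak were high in the P libraries, which goes against reading P as ectoderm alone. T stood at 616 ± 406 FPKM in P (range 305 to 1214), 80.4 ± 59.7 in EP, 6.97 ± 1.96 in EA and 5.37 ± 4.37 in A. Every P library was above every other library of the layers compared. The difference of T between the layers was -1.50 ± 0.30 (limma adjusted p 0.000939), and -1.15 without embryo 5, where it did not pass. Of 20 tested genes of the primitive streak list 12 were lower in endoderm (11 with equal medians), 1 was higher and the median was -1.04. Mixl1 stood at 136 ± 13.3 FPKM in P and differed by -2.05, the ligand gene Wnt3a by -1.93 and Fgf8 by -1.57. The higher member was Cyp26a1, which degrades retinoic acid, at 1.82. With A alone as ectoderm the sign turned, and the difference was 1.99 for T, 1.24 for Mixl1, 1.23 for Cdx2, a caudal homeobox factor, and 0.60 for Fgf8.

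The test of EA minus A against EP minus P showed where the layers differed unequally on the anterior and posterior sides. The value tested is signed, so a positive one can also come from a deficit of endoderm on the posterior side. The test called 102 genes (0.987%). With equal medians it called 20, and without embryo 6 it called 4, so the count rests largely on embryo 6. Of the primitive streak list 13 of 20 tested members were called. T was lower in endoderm on the posterior side, with EP minus P at -3.35, and EA minus A was 0.35, a side difference of 3.70 ± 0.68 (limma adjusted p 0.0217). Wnt3a gave -3.85 and -0.01, a side difference of 3.84 ± 0.50 (limma adjusted p 0.00278). Anterior ectoderm genes did the reverse. Slc7a3 gave -6.45 on the anterior and -2.12 on the posterior side, a side difference of -4.33 ± 0.47 (limma adjusted p 0.000970), and Utf1 gave -3.82 and -0.29 (limma adjusted p 0.00273). Dkk1 was higher in EA than in A by 4.28, while EP minus P was -0.47, a side difference of 4.76 ± 0.68 (limma adjusted p 0.00567). Sox17 gave 3.92 and 3.19, Foxa2 3.53 and 3.40 and Krt18 3.52 and 4.96, and none of them passed the test of the side.

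**Figure D4:**
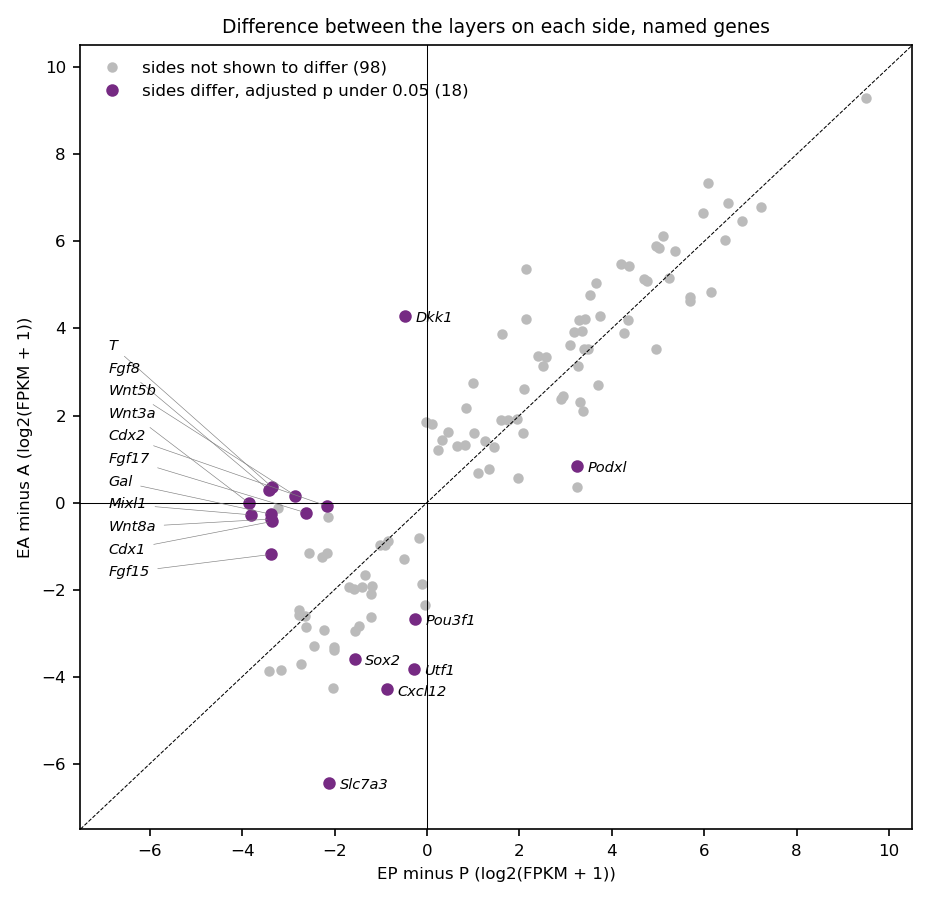
Difference between the layers on the anterior side (EA minus A, y axis) and on the posterior side (EP minus P, x axis), both on the log2(FPKM + 1) scale, for the 116 genes described, with the 18 past the test of the side in purple. Most genes lie along the diagonal, the streak genes T and Wnt3a lie above it near 0 on the y axis, and Slc7a3 and Utf1 lie below it.

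Among the signalling lists, several WNT and FGF ligand genes were lower in endoderm, some of which, such as Wnt3a and Fgf8, are also on the primitive streak list. Of all genes tested, 8.8% were higher and 10.3% lower, or 8.57% and 4.13% with equal medians. Several list counts here and in the paragraphs on other lists below lie close to these shares. The WNT list had 1 of 20 tested members higher, Dkk1, and 7 lower (4 with equal medians). Among the lower were the ligand genes Wnt3a and Wnt8a at -1.88, the secreted Sfrp2 at -2.15 and the target Lef1 at -1.01. The receptor Fzd5 at 0.02 and the target Axin2 at 0.19 did not pass. The test of the side called 7 of the 20, and Wnt3a and Wnt8a changed sign with A alone as ectoderm. The FGF list had 2 of 16 higher and 5 lower. The ligand genes Fgf8, Fgf15, Fgf17 and Fgf4 were lower, Fgf15 with -2.28, and so was the receptor Fgfr1 at -1.67, while the receptor Fgfr3 at 1.40 was higher. Fgfr1 did not pass without embryo 6, with -0.95 (limma adjusted p 0.194).

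The BMP list had 5 of 16 tested members higher and none lower. Bmp2, a ligand gene, differed by 2.83 ± 0.33 without overlap of the layers, and the antagonists Nog and Chrd by 1.75 and 0.92. Bmp4 at 0.05 did not pass. The NODAL list had 3 of 15 tested members higher and 1 lower (none lower with equal medians), and 11 did not pass. Among the higher were Cer1 and the co-receptor gene Cfc1, at 2.81, and the lower one was the transcriptional partner Foxh1, at -0.93. Foxh1 did not pass with equal medians (limma adjusted p 0.134) or without embryo 6 (limma adjusted p 0.560). In the hedgehog list the ligand gene Ihh was higher by 1.06 and Smo, Gli3 and Gas1, which act in receiving cells, were lower, at -0.89, -0.87 and -1.66. Ihh did not pass without embryo 5 (limma adjusted p 0.109), and Smo, Gli3 and Gas1 did not without embryo 6 (limma adjusted p 0.544, 0.770 and 0.198). With equal medians 1 member was higher and 1 lower. In the retinoic acid list 4 of 11 were higher, led by Rbp4 at 5.16 ± 0.32, and Crabp2 was lower. The node and notochord list had 3 of 14 higher, among them Nog and Chrd, and 3 lower, among them T. The list of genes that later divide the gut tube into regions had 8 tested members, of which 1 was higher and 3 were lower, Sox2, Otx2 and Cdx2. Cdx2 did not pass without embryo 5 or without embryo 6 (limma adjusted p 0.0796 and 0.0516), and Otx2 did not without embryo 6 (limma adjusted p 0.542). The peptide hormone list had 1 of 6 higher and 3 lower (2 and 2 with equal medians). The lower members were Apln at -1.86, Gal at -1.82 and Grp at -0.98, and the higher one was secretin (Sct) at 1.51. The highest library of Sct was EA section 6 of embryo 6 with 93.0 FPKM, and without section 6 the difference was 0.56 (limma adjusted p 0.149). Without embryo 6 Sct did not pass either (limma adjusted p 0.125).

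Of 22 tested cell cycle genes 10 were lower and 1 was higher, with a median of -0.68, and with equal medians 3 were lower. Ccne1, the cyclin of entry into S phase, differed by -1.50 without overlap, and the replication helicase genes Mcm2, Mcm3 and Mcm4 by -0.79, -0.99 and -0.94. The general markers Mki67 at -0.37 and Top2a at -0.15 did not pass. The higher member was the cell cycle inhibitor Cdkn1c at 2.75 ± 0.26. Of 18 glycolysis genes 10 were lower and 1 higher, and 6 were lower with equal medians. Eno1 differed by -2.62, being -1.63 in embryo 5 and -3.61 in embryo 6, and the lactate exporter Slc16a3 by -2.26. Eno1 was listed at 0.000240 FPKM in EA section 10 of embryo 6, far below the worth of 1 read, and it has a near-identical copy in the genome, so the split between copies is uncertain. The higher member was no enzyme but the glucose transporter Slc2a3, with 371 ± 44.3 FPKM in endoderm against 39.6 ± 9.75 in ectoderm, without overlap. Of 8 tested stress and immediate early genes 4 were higher, the metallothioneins Mt1 at 3.20 and Mt2 at 2.73, the chaperone Hspb1 at 2.96 and Junb at 1.04. The immediate early genes Fos at 0.74 and Jun at 0.23 did not pass. Mcm3 and Junb lost their calls with equal medians (limma adjusted p 0.0536 and 0.0514) and without embryo 6 (limma adjusted p 0.254 and 0.718).

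Within the endoderm, most visceral genes stood higher in section 9 than in section 3, and the definitive endoderm list as a whole did not. As a description, 850 of the 10332 genes (8.23%) had a level that went up from section 3 to 6 to 9 in both embryos and 379 (3.67%) went down in both. Of the 28 visceral endoderm genes 21 went up and none down, and their median gain from section 3 to 9 was 3.19 in embryo 5 and 3.88 in embryo 6, against 0.11 and 0.04 for all genes. Ttr in EA of sections 3, 6 and 9 stood at 4.47, 58.1 and 500.3 FPKM in embryo 5 and at 6.16, 194 and 3213 in embryo 6. In EP it stood at 28.9, 72.7 and 819 and at 19.6, 594 and 2946. Each step was upward on both sides of both embryos. Apolipoproteins and lipid transport had 11 of 14 members going up and 1 going down, and the endocytic list 10 of 20 and none.

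Sox17 showed no such gradient. In EA of sections 3, 6 and 9 it stood at 13.0, 11.3 and 12.3 FPKM in embryo 5 and at 14.2, 23.4 and 16.9 in embryo 6, and its lowest EA value of each embryo was in section 10, with 2.24 and 2.75. With EP included the embryos did not share a direction. The mean of EA and EP was 17.5, 12.5 and 10.6 FPKM in embryo 5 and 9.42, 15.3 and 13.6 in embryo 6. Of the 21 definitive endoderm genes 3 went up and 4 down, with a median gain of -0.01 and -0.07. The basement membrane list ran the other way in its median, which was -1.66 and -1.32 from section 3 to 9, although none of its members went down at each step in both embryos. Hba-a1 was also lower in section 9 than in section 3 in each region of each embryo, with 12749 and 1884 FPKM in EA of embryo 5 and 2474 and 236 in EA of embryo 6. From section 3 to section 9 most visceral genes thus went up and Hba-a1 went down. Hba-a1 did not fall steadily, with 3561 FPKM in EA section 6 of embryo 6 and 2149 in EA section 2 of embryo 5. A link between these patterns was not tested.

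**Figure D5:**
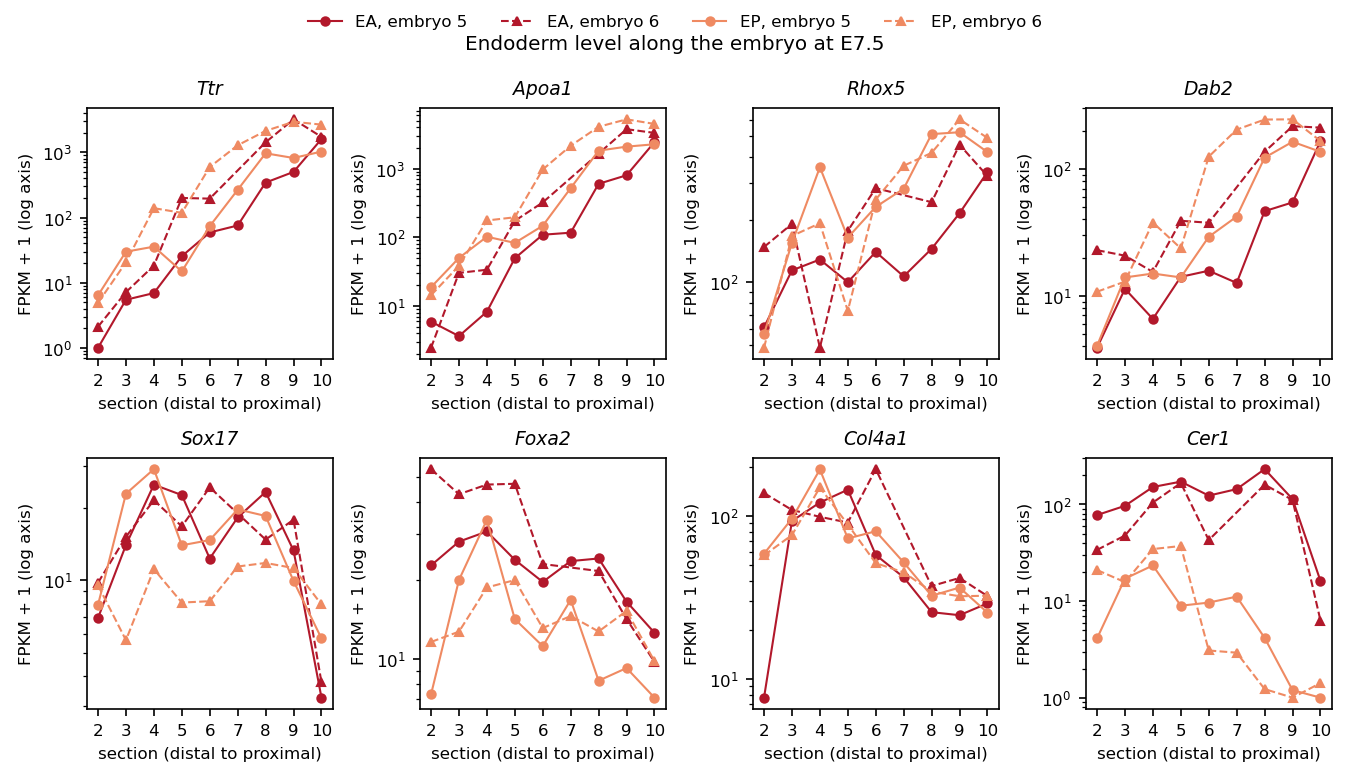
Level (FPKM + 1, log axis) of 8 genes in EA and EP of sections 2 to 10 of embryos 5 and 6, with EA section 7 of embryo 6 left out. Ttr, Apoa1, Rhox5 and Dab2 climb toward section 10, and Sox17 has no steady trend before its drop in EA section 10. Col4a1 peaks in sections 4 to 6 and is lower in sections 8 to 10, and Cer1 separates EA from EP.

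The mesoderm lies between the 2 layers and was compared with endoderm in the same way, with the same endoderm libraries. Of 9979 genes tested, 769 (7.71%) were higher in endoderm than in mesoderm and 933 (9.35%) lower. The visceral endoderm list had 24 members higher and none lower there, and the definitive endoderm list 12 and 1. The anterior endoderm list had 1 higher and 2 lower, and the NODAL list 0 and 3. Cfc1 stood at 55.9 ± 21.3 FPKM in MA against 31.7 ± 16.7 in EA. Spink3 differed by 4.51 ± 0.61 (limma adjusted p 0.0244) and Krt18 by 2.41 ± 0.34 (limma adjusted p 0.000399). Sox17 stood at 2.48 ± 2.46 FPKM in mesoderm and differed by 2.54 ± 0.28 (limma adjusted p 9.54e-06). Its spread came from the MA libraries of embryo 6 in sections 6 and 9, which held 16.4 and 6.06 FPKM, with Krt18 at 143 and 184 and Spink3 at 2696 and 10477. These libraries carry endoderm genes, and their part in the mesoderm comparison was not tested.

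Against ectoderm the mesoderm list was mixed, with 8 of 19 tested members higher in endoderm and 5 lower, and against mesoderm 1 member was higher and 14 lower. Those higher than in ectoderm included Hand1, a heart and extra-embryonic factor, at 1.87, Mesp1, an early heart factor, at 1.43 and Snai1, which represses Cdh1, at 0.92. Those lower were genes of the presomitic mesoderm and its Notch system, Tbx6 at -1.11, Dll1 at -1.29 and Hes7 at -1.68, and the repressor Zeb2 at -0.72. The highest endoderm library of Hand1 was EA section 6 of embryo 6 with 91.8 FPKM, the library highest in Prl3d1. The next highest held 21.3 FPKM. The summed level of the list was 115 to 458 FPKM in endoderm (median 160), 20.5 to 549 in ectoderm (median 184) and 337 to 1865 in mesoderm (median 658). The endoderm libraries thus lay in the range of the ectoderm and mostly below the mesoderm for these genes.

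Signs were compared in libraries that did not enter the calls. In sections 2, 4, 5, 7, 8 and 10 of the same embryos, EP minus P had the same sign for 856 of the 909 higher genes (94.2%) and 1059 of the 1065 lower genes (99.4%), where 22.2% and 77.6% of all genes had those signs. In embryo 4, whose endoderm regions are coded E1 and E2, the sign was the same for 706 of the 909 higher genes (77.7%) and 984 of the 1065 lower genes (92.4%), against 31.0% and 68.3% of all genes. The share for lower genes therefore stands less far above that of all genes than the share for higher genes. Within the sections used, 629 of the 909 higher genes (69.2%) and 788 of the 1065 lower genes (74.0%) had the same sign in all 6 pairs of embryo and section. Of the 116 genes described, 112 passed the threshold and 58 of them passed it under each of 21 alternative settings.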

How the data were processed

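Endoderm (EA, EP), ectoderm (A, P) and mesoderm (MA, MP) libraries of E7.5 embryos 5 and 6 in sections 3, 6 and 9 were used, with E6.5 embryos 5 and 6 and E7.0 embryos 1 and 2 for the spread. Frozen sections of OCT-embedded embryos were laser microdissected, RNA was taken up in guanidine isothiocyanate and Nextera XT was used for the libraries, per the labels' protocols. The authors deposited FPKM values from Cufflinks 2.1.1 after alignment to mm10 with TopHat2 2.0.8b, per the submitters' processing notes, in 1 table per embryo. The annotation is not given in the sources used here. FPKM carry no counts, so no count model was run, and the depths given cover counting error only. Embryo, section and region in a column's name tied it to its sample. In the tables used, 56 columns were left out because they matched no sample or were not needed for the comparisons.

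Within each embryo, the difference of log2(FPKM + 1) between the layers was averaged over sections. One value per embryo entered limma 3.58.1 (R 4.3.3) with stage as the factor, moderation with trend and robust options, 3 residual degrees of freedom and Benjamini-Hochberg adjustment over all 10332 genes tested (threshold 0.05). The same model took the side difference and the endoderm minus mesoderm difference, the latter over 9979 genes of E7.0 and E7.5 with 2 residual degrees of freedom. The pairing comes from the design, since both layers are of the same embryo and section, and the deviations of endoderm and ectoderm from their stage means correlated within embryos by 0.517 at E6.5, 0.591 at E7.0 and 0.575 at E7.5 across 10332 genes, which are not independent. The equal-median scaling used genes with a mean of at least 5 FPKM. The fit was tested on simulated data with planted changes. Alternatives changed the scaling, pseudocount, filter, embryos, sections, regions, spread and pairing.

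Genes described are up to 15 with the largest difference in each direction among those called with a difference of at least 1, 1 sign in all 6 pairs and a mean of at least 5 FPKM, up to 4 of each of 28 lists with the smallest p, and 10 set genes, 116 in all. Other genes appear as list members. Some list members are not reported here. The members and lists were chosen with earlier results of these data known. Whether the 2 embryos came from 1 litter is not stated, so spread between litters may not be covered. The p-values of the main comparison rest mostly on spread shared with embryos of other stages and with other genes. That fit had 3 residual and a median of 20.1 prior degrees of freedom.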

Additional observations from a re-analysis of the deposited data

Results flagged for a closer look

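For 18 of the genes described, the difference between endoderm and ectoderm was unequal on the anterior and posterior sides by the test of that difference (limma, 2 embryos at E7.5 with the spread shared over 6, adjusted over 10332 genes). Values are EA minus A minus the difference EP minus P on the log2(FPKM + 1) scale.

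Genes of the streak and tail bud had positive values, being lower in EP than in P and close to level between EA and A. The ligand genes gave 3.84 for Wnt3a, 3.00 for Wnt8a, 3.01 for Wnt5b, 3.72 for Fgf8, 2.40 for Fgf17 and 2.19 for Fgf15. The transcription factors gave 3.70 for T, 3.53 for Mixl1, 2.92 for Cdx1 and 2.08 for Cdx2. Gal, the precursor of the neuropeptide galanin, gave 3.12. Adjusted p-values of these 11 genes ran from 0.00278 (Wnt3a) to 0.0270 (Fgf15) by limma. Fgf15 was the one of them with a clear deficit on both sides, with EA minus A at -1.19 and EP minus P at -3.38.

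Dkk1 also had a positive value, 4.76, from the opposite pattern: EA minus A was 4.28 and EP minus P was -0.47. Negative values came from anterior ectoderm genes, -4.33 for Slc7a3, -3.53 for Utf1, -2.40 for Pou3f1, -2.03 for Sox2 and -3.43 for Cxcl12, which were lowest in EA against A. Podxl gave -2.40, with EA minus A at 0.85 and EP minus P at 3.25 (limma adjusted p 0.0447). With equal medians the test called 20 genes in all and without embryo 6 it called 4, against 102 as deposited.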

How the results depend on the processing

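The number of genes called (1974 as deposited, 909 higher, 1065 lower) depended on the processing, and the cause was not tested unless given here. Equal medians gave 1312 called and 427 lower, an equal sum 665 lower and a pseudocount of 0.1 gave 579 lower. No filter on low values gave 1171 called and 445 lower, and a mean of at least 5 FPKM gave 1150 called and 433 higher over fewer genes tested. A alone as ectoderm gave 585 lower, EA minus A 1084 called and 416 lower, EP minus P 1184 called and 574 lower, and leaving out section 9 gave 643 lower. EP minus P in sections 2, 4, 5, 7, 8 and 10, chosen after seeing the data, gave 3057 called, 563 higher and 2494 lower, with a median of all genes of -0.48. The fit with no replicate block, which ignores the pairing of layers within an embryo, gave 485 called, 388 higher and 97 lower. Leaving out each E7.5 embryo gave 610 to 1392 called, 461 to 635 higher, 149 to 757 lower and a median of -0.30 to -0.01, with the lone embryo assumed to vary like those of the other stages. The side test gave 20 with equal medians and 4 to 83 without each embryo, and the mesoderm comparison 694 to 1290. The other settings kept each of these counts within 1.5 times, among them section 6, which holds the library richest in Prl3d1, with 928 higher and 1030 lower without it.

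Directions reversed where a region was left out. With A alone as ectoderm, the values became 1.99 for T, 1.24 for Mixl1, 1.23 for Cdx2, 0.93 for Gal, 0.60 for Fgf8, 0.45 for Cdkn1a, 0.43 for Cdx1, 0.42 for Hes7, 0.39 for Wnt5b, 0.33 for Wnt3a and 0.22 for Wnt8a. EA minus A gave 0.35 for T, 0.29 for Fgf8 and 0.16 for Wnt5b, and EP minus P gave -0.47 for Dkk1. In the other sections Dkk1 was -0.70 and Crabp1 -0.15, and against P alone, added after seeing the data, Otx2 was 0.90 and Utf1 0.14. Of the 112 genes described that passed, 58 passed under each of the 21 settings of the contrast, and without the replicate block 38 no longer passed. Depth limits low genes: 1 read was worth up to 0.308 FPKM in a transcript of 2 kb.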

Other observations

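Embryo 4 of E7.5 has endoderm regions coded E1 and E2. They were left out of the main comparison and joined EA and EP only in an alternative setting. In section 3 of embryo 4 the endoderm genes were divided between the libraries. Krt18 was 144 FPKM in the library labelled A against 33.4 in E1 and 10.2 in E2, and Cer1 was 76.5 against 1.08 and 8.95. Sox17 was 0 in A, 0 in E1 and 9.36 in E2, and Spink3 was 152, 301 and 357. In sections 6 and 9 Krt18 stood at 132 and 98.6, and at 119.8 and 279, in E1 and E2. The difference of Krt18 was accordingly -1.30 in section 3, 5.83 in section 6 and 5.14 in section 9. The secreted inhibitor Spink3 differed by 6.59 and Sox17 by 1.63 in the mean over the sections, E1 and E2 minus A and P. Of genes lower in endoderm of embryos 5 and 6, Slc7a3 stood at -3.19, Pou5f1 at -2.86 and Sox2 at -2.31. These are values of 1 embryo, with no test.

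In embryo 4 the visceral genes again stood in the proximal section. Apoa1 was 0 and 0 FPKM in E1 and E2 of section 3, 0 and 36.7 in section 6 and 251 and 1128 in section 9. Apom was 232 and 688 in section 9 and 0 and 0 in section 6.

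H19, Cdkn1c and Snrpn, which are imprinted, differed in both directions, and imprinted genes as a class were not examined. Paternally silenced H19 was higher in endoderm by 4.91 ± 0.27 (limma adjusted p 5.03e-12) and Cdkn1c, silenced on the same copy, by 2.75 ± 0.26 (limma adjusted p 5.15e-08), while Snrpn, which is expressed from the paternal copy, differed by -3.51 ± 0.28 (limma adjusted p 2.98e-09). The genes in this paragraph were picked after their values were seen.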
